A study of Mus musculus with 12 samples.

Results

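TRAV14 is a family of V gene segments of the mouse T cell receptor (TCR) alpha chain locus, present in C57BL/6 mice as 9 named copies. A cell was counted as a TRAV14 cell when its alpha chain (TRA) with the most unique molecular identifiers (UMIs, counts of single mRNA molecules) carried one of these names. By this rule 5503 of 66136 cells with a TRA were TRAV14 cells, among 100540 cells of the deposited cell table. The copies were TRAV14-1, TRAV14-2 and TRAV14-3, TRAV14D-1, TRAV14D-2 and TRAV14D-3-DV8, and TRAV14N-1, TRAV14N-2 and TRAV14N-3. Of the 9 names 7 occurred in the TCR table, and TRAV14D-1 and TRAV14D-2 were at 0 cells in all 6 libraries. A count of 0 among 17851 control Teff cells with a TRA allows a share of up to 0.0168% for the name. This count sets no limit on the use of TRAV14D-1 and TRAV14D-2 themselves. Their V regions differ at 0 of 267 bases from those of TRAV14N-1 and TRAV14N-2, so their cells can carry the N names.

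An alpha chain is built in the thymus by joining 1 V segment to 1 J segment of the same locus, and a first join can be replaced later by one that uses a more distant V and a more distant J. The V segment encodes the first and second complementarity-determining loops (CDR1 and CDR2), which mostly touch the presenting MHC molecule, and the joint encodes the third (CDR3), which mostly touches the peptide. In C57BL/6 mice a large part of the V array was duplicated, and the suffixes D and N mark copies that lie in the duplicated blocks. The alpha chain pairs with a beta chain (TRB), and cells that share both chains descend as a rule from 1 ancestor.

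CD8+ T cells were sorted from the spleens of C57BL/6 mice without a genetic change (wild-type). Antibody 3H3 against CD137, a costimulatory receptor of activated T cells, was given at 10 µg to 5 mice, and the control immunoglobulin HRPN at 100 µg to 10 mice, on several occasions over 14 days. All sorted cells had high CD44. The effector gate (Teff) was negative for PD1. The other gates were positive for PD1: precursors of exhausted cells (Tpex) were Slamf6+ Tim3-, and the exhausted gate (Tex) was Slamf6- Tim3+. Each of the 6 populations was 1 library pooled over mice, so no comparison has a replicate check and no test was run. Cells could not be traced to single mice. The sort markers and other cell type markers could not be checked, because expression values per gene were not used here. Intervals are 95% intervals, exact (Clopper-Pearson) for shares and built from those by Newcombe's method for differences, and they cover counting error only. Cells that share both chains are not independent, so intervals by cells are too narrow in libraries with large groups of such cells.

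The libraries held 4556 to 20856 cells with a TRA. The anti-CD137 Tpex library stood apart, with a TRA in 34.5% of its cells against 48.4 to 79.1% in the others. In that library the median TRA count of TRAV14 cells was 2 UMIs against 4 to 8 elsewhere, and 66.9% of its barcodes with a TCR chain lay outside the cell table. In anti-CD137 Tex this share was 35.2%, and in the other 4 libraries 3.16 to 14.5%. Libraries shared 4946 of 92134 barcodes. Of the TRAV14 cells 374 had a barcode that also named a cell with a TRA in another library, and 0 of these had the same TRA CDR3. A second TRB, which doublets can give, was found in 2.78 to 24.5% of TRAV14 cells by library.

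All 9 copies lie on the plus strand of chromosome 14 in the GENCODE annotation of GRCm38 (mm10), each with its V region in the second exon. In order toward the J segments they are TRAV14D-1 (chr14:52855614-52856166), TRAV14D-2 (chr14:52948568-52949169), TRAV14D-3-DV8 (chr14:53078452-53079045), TRAV14N-1 (chr14:53166626-53167178) and TRAV14N-2 (chr14:53259578-53260179). TRAV14N-3 (chr14:53370077-53370575), TRAV14-1 (chr14:53554022-53554558), TRAV14-2 (chr14:53640701-53641225) and TRAV14-3 (chr14:53763173-53763694) follow. The J segments of the locus (TRAJ) lie at chr14:54155005-54218842, so that the distance to the first of them runs from 1299 kb for TRAV14D-1 to 391 kb for TRAV14-3.

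Over 267 bases of the V region before the CDR3, the copies differed by 5 to 20 bases, with 2 exceptions. TRAV14D-1 and TRAV14N-1 differed at 0 bases, also over 415 bases of their transcripts, and so did TRAV14D-2 and TRAV14N-2, also over 464. Cells named TRAV14N-1 or TRAV14N-2 can therefore not be told apart from cells that used the D copy of the same number. Of the 1068 and 1065 cells so named, 1063 and 1062 matched the shared germline sequence at every base of the 267.

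The stretch from CDR1 through CDR2 is shown because the CDR1 sorts the copies by number rather than by block, while the CDR2 crosses the numbers. It is 90 bases of the germline, read 5′ to 3′ from the GRCm38 transcripts, and capitals mark the 17 positions at which the 7 copies found by name vary.
TRAV14D-3-DV8: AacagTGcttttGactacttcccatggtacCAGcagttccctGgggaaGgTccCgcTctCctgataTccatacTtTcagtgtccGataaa
TRAV14N-3: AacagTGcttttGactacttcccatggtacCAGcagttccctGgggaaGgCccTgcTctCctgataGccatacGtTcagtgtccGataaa
TRAV14-3: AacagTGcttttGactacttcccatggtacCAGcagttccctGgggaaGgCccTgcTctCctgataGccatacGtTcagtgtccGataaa
TRAV14N-1: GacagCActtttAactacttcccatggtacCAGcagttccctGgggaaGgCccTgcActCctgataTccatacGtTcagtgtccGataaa
TRAV14-1: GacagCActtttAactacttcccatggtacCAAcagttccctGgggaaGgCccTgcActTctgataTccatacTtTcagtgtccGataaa
TRAV14N-2: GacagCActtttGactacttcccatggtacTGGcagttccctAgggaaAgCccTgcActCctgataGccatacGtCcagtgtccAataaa
TRAV14-2: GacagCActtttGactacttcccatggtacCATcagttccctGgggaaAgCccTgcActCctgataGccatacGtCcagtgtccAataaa
The copies numbered 1 encode the CDR1 DSTFNY, those numbered 2 DSTFDY and those numbered 3 NSAFDY. The CDR2 is IRPVSNK in both copies numbered 2, IRSVSDK in TRAV14N-1, TRAV14N-3 and TRAV14-3, and ILSVSDK in TRAV14-1 and TRAV14D-3-DV8. TRAV14N-3 and TRAV14-3 thus share both loops, and so do TRAV14N-2 and TRAV14-2. Of the cells, 1063 of 1065 named TRAV14N-2, 1000 of 1002 named TRAV14-2 and every cell of the other 5 names had these loops.

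In Teff, close to 1 cell in 10 used TRAV14, and in Tex the share was under 5%. By cells the family took 9.80% of control Teff (9.37 to 10.2%), 8.28% of control Tpex (7.75 to 8.83%) and 4.10% of control Tex (3.67 to 4.56%). With anti-CD137 it took 9.60% (9.20 to 10.0%), 7.99% (7.22 to 8.81%) and 4.59% (4.02 to 5.23%) in the same order. Tex was the lowest library of each treatment, and its interval lay below those of Teff and Tpex. Tex differed from Teff by -5.71 percentage points in control mice (-6.32 to -5.07). Under anti-CD137 the difference was -5.01 (-5.71 to -4.26). Without the 10 largest clonotypes of each library the control value was -2.84 (-3.68 to -1.95) and the anti-CD137 value -3.82. Among 20 TRAV families TRAV14 ranked at 5 by cells in the Teff and Tpex libraries and at 9 in both Tex libraries. Between treatments, the interval of the difference by cells included 0 in all 3 subsets (Teff -0.801 to 0.390, Tpex -1.24 to 0.687, Tex -0.241 to 1.26 points). Without the 10 largest clonotypes of each library it excluded 0 in Tpex, at -1.27 (-2.31 to -0.210), and in Tex, where the sign turned from 0.496 to -1.14 (-2.20 to -0.0695).

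Counting each clonotype once gave a different picture in the control. A clonotype is the pair of TRA and TRB nucleotide CDR3s within a library. TRAV14 took 9.75% of 17058 control Teff clonotypes, 9.69% of 5364 in Tpex and 9.07% of 1124 in Tex, and the Tex value differed from Teff by -0.674 points (-2.35 to 1.21). With anti-CD137 it took 9.69% of 19625 Teff, 8.28% of 3552 Tpex and 6.08% of 1316 Tex clonotypes. There Tex differed from Teff by -3.61 points (-4.91 to -2.12). In Tex the share of clonotypes was lower with anti-CD137 than in the control by 3.00 points (interval of the difference -5.20 to -0.839), while the shares of cells were close. In Tpex it differed by -1.42 points (-2.63 to -0.185). That interval excluded 0 under only 1 of 7 other ways of counting chains, cells and clonotypes.

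The copies were used unequally. In control Teff, by cells, TRAV14N-1 took 1.97%, TRAV14N-2 1.76%, TRAV14N-3 1.69% and TRAV14-2 1.56%. TRAV14-1 and TRAV14-3 each took 1.15%, and TRAV14D-3-DV8, a segment that can also join to delta chain segments, took 0.521%. The intervals of TRAV14N-1, TRAV14N-2 and TRAV14N-3 overlapped, and that of TRAV14-2 (1.38 to 1.75%) overlapped the latter 2. Those of TRAV14-1 and TRAV14-3 overlapped each other and lay below the first 4, and that of TRAV14D-3-DV8 (0.421 to 0.638%) lay below all others. With anti-CD137 the Teff values were 1.74, 1.64, 1.72 and 1.69% for the first 4 copies, 1.17 and 0.997% for the next, and 0.662% for TRAV14D-3-DV8. Since TRAV14N-1 and TRAV14N-2 may each hold cells of 2 copies, their rank is a rank of names.

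No copy passed a 1.5-fold difference between treatments in Teff, by cells or by clonotypes, and of all 61 TRAV segments at or above 0.5% in at least 1 of the libraries 0% did. In Tpex the segments past this fold made up 52.5% by cells and 28.6% by clonotypes. Of 7 copies there 3 passed by cells and 2 by clonotypes. TRAV14-3 took 0.766% of the Tpex cells of the control and 0.483% under anti-CD137, and 1.17% and 0.450% of clonotypes. TRAV14N-2 took 2.0% and 0.922% of cells, and 1.90% and 1.04% of clonotypes. TRAV14N-1 was past the fold by cells only, with 1.34% and 2.04%. The anti-CD137 library of this comparison had a median of 1950 UMIs per cell against 4729 in the control, and the part of depth was not tested.

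In Tex 68.9% of all segments were past the fold between treatments by cells and 41.5% by clonotypes. By cells 3 of the 4 copies at or above 0.5% passed. TRAV14-2 took 0.632% of control and 1.61% of anti-CD137 cells, TRAV14N-3 0.202% and 0.940%, and TRAV14N-2 1.56% and 0.835%. By clonotypes TRAV14-2 ran the other way, with 2.31% and 1.06%. Its anti-CD137 Tex cells included clonotypes of 27 and 15 cells. TRAV14N-3 (0.623% and 1.37%) and TRAV14N-2 (2.76% and 1.37%) kept their directions by clonotypes. These shares rest on 7 to 31 clonotypes a copy.

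**Figure D1:**
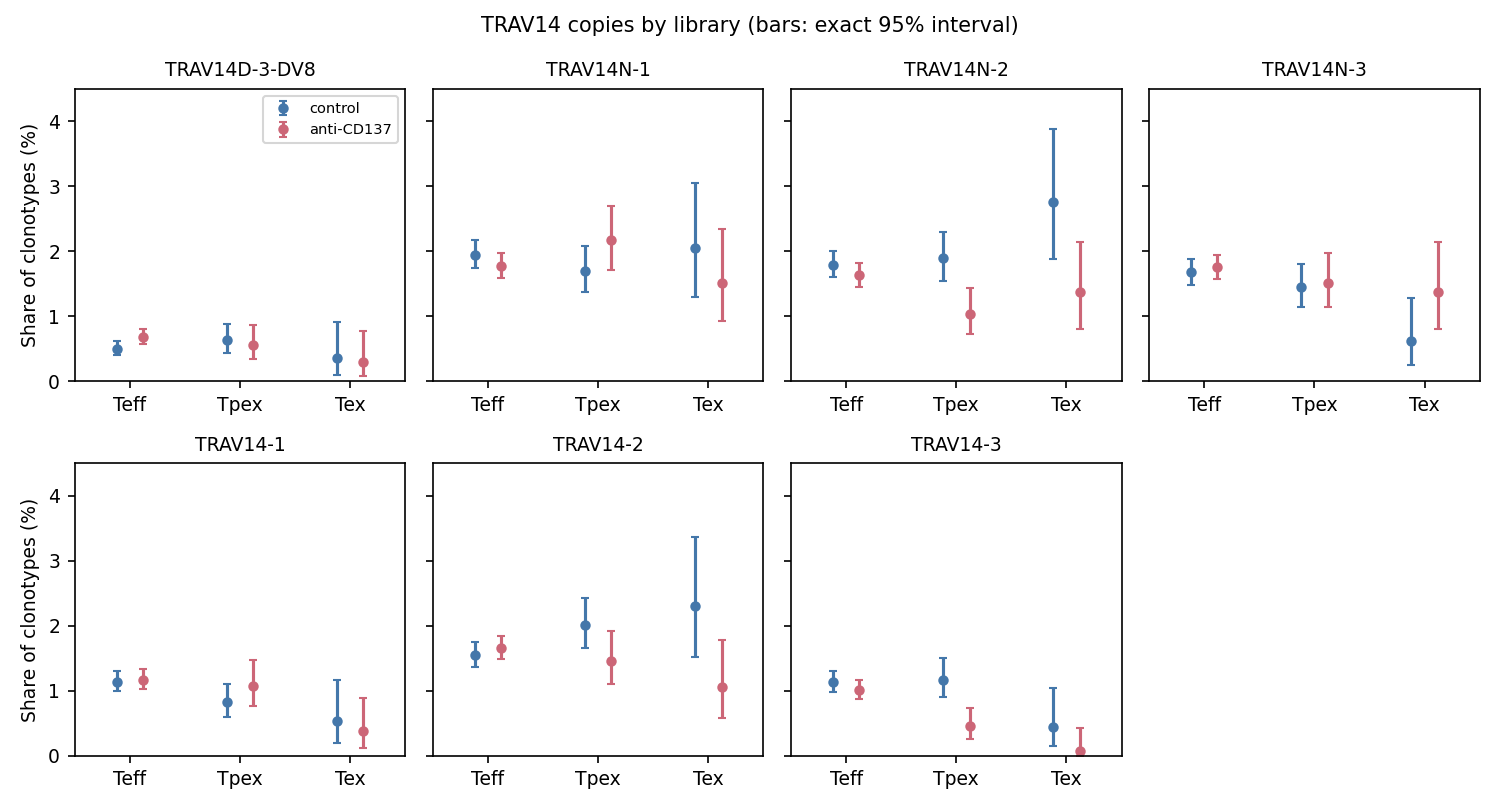
Share of clonotypes that used each TRAV14 copy, in percent of the clonotypes of the library, for Teff, Tpex and Tex of control (blue) and anti-CD137 mice (red); points are single libraries and bars exact 95% intervals. For TRAV14-3 Tex was the lowest library of each treatment (0.445% and 0.0760%), and control Tex was the highest library for TRAV14N-2 (2.76%) and TRAV14-2 (2.31%).

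Against Teff, 6 of 7 copies were at least 1.5-fold lower by cells in Tex of each treatment, where 50.8% of control and 42.2% of anti-CD137 segments were that much lower. The copies' median log2 ratio was -1.30 for control and -0.97 for anti-CD137 cells, beside -0.63 and -0.41 over all segments tested. The copy that did not pass was TRAV14N-2 in the control and TRAV14-2 with anti-CD137. By clonotypes 3 copies were lower and 1 higher in the control, where 16.1% of all segments were lower and 19.4% higher. With anti-CD137 4 copies were lower and none higher, with 20% of segments in each direction. Between Tpex and Teff 2 copies were lower by cells in each treatment, where 24.1% of control and 12.5% of anti-CD137 segments were lower. By clonotypes 0 copies were lower in the control and 2 under anti-CD137, where 5.08% and 10.9% of segments were lower.

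TRAV14-3, the copy nearest the J segments, had the lowest share of Tex cells among the copies found by name. It was found in 206 control and 208 anti-CD137 Teff cells (1.15% and 0.997%), in 78 and 22 Tpex cells (0.766% and 0.483%), and in 6 and 2 Tex cells. In Tex this was 0.0759% (0.0279 to 0.165%) and 0.0418% (0.00506 to 0.151%). By clonotypes it took 0.445% and 0.0760% of Tex, from 5 clonotypes and 1.

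Pooled by number, which groups the copies by their CDR1, each of the 3 groups took 2.90 to 3.45% of Teff cells or clonotypes. In control Tex the copies numbered 2 lay above the others in both units. In anti-CD137 Tex the intervals by clonotypes overlapped, at 1.23 to 2.79%, 1.67 to 3.42% and 1.11 to 2.61% for numbers 1, 2 and 3. The copies numbered 3 took 3.37% of control Teff cells, 2.28% of Tpex and 0.519% of Tex, and 3.38%, 2.48% and 1.09% with anti-CD137. By clonotypes they took 3.31%, 3.26% and 1.42% in the control and 3.45%, 2.53% and 1.75% with anti-CD137. Tex was thus the lowest library of both treatments in both units. By clonotypes Tex lay below Teff by 1.88 points in the control (interval of the difference -2.55 to -0.966) and by 1.71 with anti-CD137 (-2.40 to -0.808). Taken singly, with anti-CD137, this interval excluded 0 for TRAV14-3 (-1.10 to -0.561). It included 0 for TRAV14N-3 (-0.978 to 0.415) and TRAV14D-3-DV8 (-0.638 to 0.101).

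The copies numbered 2 took 3.35% of control Teff clonotypes, 3.91% of Tpex and 5.07% of Tex. In the control Tex lay above Teff by 1.72 points (0.484 to 3.20). With anti-CD137 the shares were 3.29%, 2.51% and 2.43%, and the difference of Tex from Teff was -0.860 (-1.67 to 0.154). Control Tex was the highest of the 6 libraries, and in Tex anti-CD137 differed from the control by -2.64 points (-4.28 to -1.08). By cells, control Tex was below Teff instead, with 2.19% against 3.32%, but without the 10 largest clonotypes of each library it was above by 0.393 points (-0.201 to 1.03). The copies numbered 1 took 3.10%, 2.52% and 2.58% of control and 2.95%, 3.24% and 1.90% of anti-CD137 clonotypes, and Tex differed from Teff by -0.515 points in the first (-1.40 to 0.618) and -1.05 in the second (-1.76 to -0.124).

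**Figure D2:**
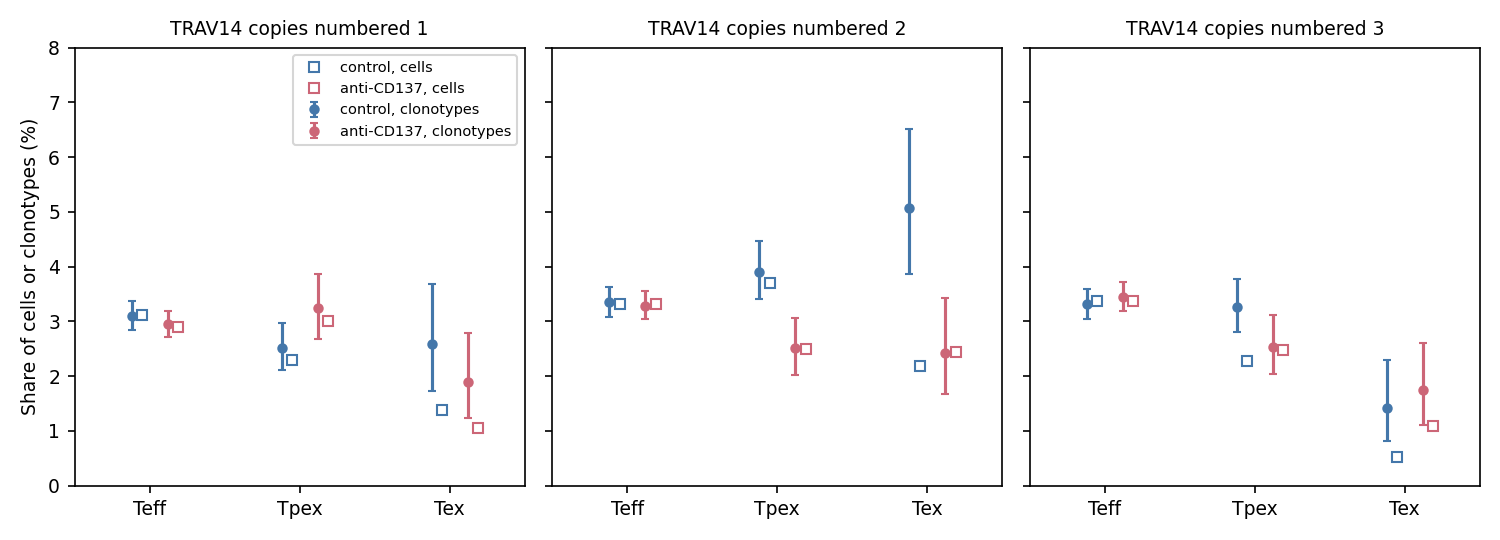
Share of the TRAV14 copies numbered 1, 2 and 3, in percent of the clonotypes (filled circles, with exact 95% intervals) or cells (open squares) of each library, for control (blue) and anti-CD137 mice (red). The copies numbered 3 were below 2% of clonotypes in both Tex libraries, and the copies numbered 2 were at 5.07% in control Tex and at 2.43 to 3.91% elsewhere. The copies numbered 1 were also below 2% in anti-CD137 Tex (1.90%).

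The copies without a suffix, which lie nearest the J array, joined near J segments more often than the N and D copies did. TRAJ segments are numbered so that high numbers lie nearest the V segments, and TRAJ31 and above were taken as the near part. Among control Teff clonotypes the near part took 92.7% of TRAV14-3 (88.1 to 96.0%), 67.2% of TRAV14-2 and 55.4% of TRAV14-1. It took 24.5% of TRAV14N-3, 14.1% of TRAV14N-2 (10.4 to 18.5%), 30.9% of TRAV14N-1 and 23.3% of TRAV14D-3-DV8. With anti-CD137 the values were 90.4, 66.5 and 61.7% for the copies without a suffix, and 27.0, 15, 35.1 and 23.0% for the others. The 3 copies without a suffix lay above the 4 others in both libraries, and their intervals did not overlap with those of the others. Within the others the shares did not follow distance, since TRAV14N-2 lay below TRAV14N-1 (26.0 to 36.2% in the control), which is farther away. The median TRAJ number was 49 for TRAV14-3 in both libraries and 22 or 23 for the N and D copies. All other TRAV clonotypes had 46.6% and 45.7% in the near part.

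Around the copies without a suffix, neighbouring V segments had close shares. Within 60 kb of each copy, 7 to 11 other segments were in use, and over both Teff libraries their clonotypes had 89.9% in the near part around TRAV14-3, 67.9% around TRAV14-2 and 57.2% around TRAV14-1. The copies themselves had 91.5%, 66.8% and 58.8%. TRAV14N-2 had 14.5% (11.8 to 17.5%) and its neighbours 24.1% (23.1 to 25.2%). For TRAV14N-3, TRAV14N-1 and TRAV14D-3-DV8 the values were 25.8, 33.0 and 23.1% beside 30.4, 29.0 and 28.8% for their neighbours. In control Tex 64.9% of 37 clonotypes without a suffix, 24.6% of 61 N clonotypes and 1 of 4 D clonotypes used the near part. In anti-CD137 Tex the values were 85.0% of 20, 28.6% of 56 and 3 of 4. Single copies had 1 to 31 clonotypes in Tex, too few to order.

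**Figure D3:**
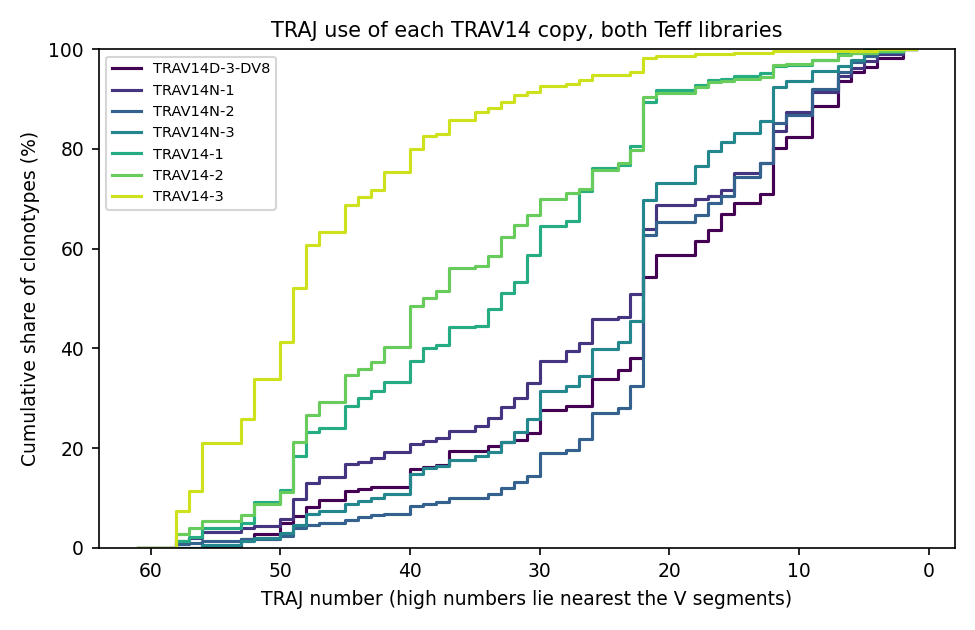
Cumulative share of the clonotypes of each TRAV14 copy, in percent, as the TRAJ number runs from the segment nearest the V array (left) to the farthest (right), over both Teff libraries. TRAV14-3 reached 91.5% at TRAJ31 and TRAV14N-2 reached 14.5%, and most curves have a step at TRAJ22.

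TRAJ22 (chr14:54197248-54197307) was the leading partner of the family in both Teff libraries, as it was of all other TRAV. It took 15.8% of control TRAV14 clonotypes (14.1 to 17.7%) and 16.6% of anti-CD137 ones (15 to 18.4%), against 7.31% and 7.60% for all other TRAV. Of 35 TRAJ segments with at least 20 TRAV14 clonotypes observed or expected in each library, 6 (17.1%) differed at least 1.5-fold the same way in both. TRAJ22 and TRAJ12 were higher. TRAJ15, TRAJ34, TRAJ39 and TRAJ57 were lower, at 0.782 to 2.29% in the control against 1.73 to 3.44% for other TRAV. TRAJ49, among the 3 most used with 5.05% in both libraries, did not differ by this fold. By copy, TRAJ22 took 30.1% of TRAV14N-2 clonotypes over both Teff libraries (26.6 to 33.9%), 24.2% of TRAV14N-3, 16.3% of TRAV14D-3-DV8 and 13.1% of TRAV14N-1. It took 10.7% of TRAV14-2, 8.94% of TRAV14-1 and 2.82% of TRAV14-3.

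Among the TRAJ22 joins a single one recurred base for base. The germline V ends of all 9 copies are identical from the cysteine codon that opens the CDR3, and the recurring CDR3 is that end joined to the whole annotated start of TRAJ22, with no base added or removed. It is shown because a single sequence links all 7 copies found by name, with the TRAJ22 part in capitals.
germline TRAV14 end: tgtgcagcaagtg
germline TRAJ22 start: CATCTTCTGGCAGCTGGCAACTCATCTTT
recurring TRA CDR3: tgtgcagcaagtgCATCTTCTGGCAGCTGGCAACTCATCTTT
It encodes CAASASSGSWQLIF. Among both Teff libraries it made up 203 of 579 TRAV14 clonotypes with TRAJ22, or 35.1% (31.2 to 39.1%), and 5.69% of all TRAV14 clonotypes. It was found in 288 cells in 5 libraries, with 246 different TRB chains. TRAV14N-2 had 90 of these cells, TRAV14N-3 80, TRAV14-2 38, TRAV14N-1 35, TRAV14D-3-DV8 22, TRAV14-1 16 and TRAV14-3 7. Its share of TRAV14 clonotypes was 5.11%, 5.38% and 5.88% in control Teff, Tpex and Tex, and 6.20% and 4.08% in anti-CD137 Teff and Tpex. In anti-CD137 Tex it was 0 of 80 clonotypes, where TRAJ22 itself was found in 3 (3.75%, 0.780 to 10.6%). This CDR3 begins with bases of the V segment, so its absence from other TRAV is no finding.

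Over both Teff libraries, 49.9% of the TRAV14 clonotypes kept the whole V end (48.3 to 51.6%) and 18.3% had no base that matched neither germline end. The share without such a base ran from 13.9% in TRAV14-1 to 21.5% in TRAV14N-2. The mean CDR3 length was 13.6 residues (SD 1.11) in control Teff TRAV14 clonotypes and 13.6 (SD 1.69) for other TRAV. Of 3731 distinct TRAV14 chains 189 were found in both treatments, or 5.07% (4.38 to 5.82%), beside 4.89% for other TRAV (4.67 to 5.12%).

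Among beta chains, the deposited combined name TRBV12-2+TRBV13-2 led with TRAV14 in both Teff libraries, as it did with other TRAV. TRBV12-2 and TRBV13-2 are neighbouring V segments of the beta locus. Contigs of the combined name were not compared with either germline here, so they were not assigned to 1 of them. The combined name took 14.2% of control TRAV14 clonotypes (12.5 to 16.0%) and 12.6% with anti-CD137 (11.1 to 14.1%), against 8.28% and 8.29% for other TRAV. It was the only 1 of 20 TRBV names tested (5%) past 1.5-fold in both. TRBV3 (8.84% and 9.15%) and TRBV12-2 alone (8.78% and 10.3%) were next and did not pass in both. By copy the combined name took 11.3 to 17.2% over both Teff libraries, and it led in 6 of 7 copies. In TRAV14-3 TRBV12-2 led with 14.4%, followed by the combined name with 13.6%.

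In the PD1+ subsets of the control, TRAJ12 and this TRBV name were more frequent than in Teff. TRAJ12 (chr14:54206553-54206610) took 4.93% of TRAV14 clonotypes in control Teff (3.94 to 6.08%), 10.0% in Tpex (7.56 to 12.9%) and 21.6% in Tex (14.0 to 30.8%). Other TRAV had 3.16%, 3.24% and 3.62%. With anti-CD137 TRAV14 had 5.21%, 2.72% and 1.25%. The combined TRBV name took 14.2%, 19.6% and 28.4% of control TRAV14 clonotypes (19.9 to 38.2% in Tex), beside 8.28%, 8.94% and 8.12% for other TRAV. With anti-CD137 it took 12.6%, 9.52% and 12.5%.

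Both segments came together in the same receptors, a combination chosen after these values were seen. It made up 24 of 1663 control Teff TRAV14 clonotypes (1.44%), 32 of 520 in Tpex (6.15%, 4.25 to 8.58%) and 18 of 102 in Tex (17.6%, 10.8 to 26.4%). Among other TRAV it made up 0.299%, 0.454% and 0.489%. With anti-CD137 it made up 22 of 1902, 2 of 294 and 1 of 80 TRAV14 clonotypes. The control Tpex and Tex shares thus stood above the other 4 libraries, whose intervals reached 2.14, 1.75, 2.44 and 6.77%, although that of anti-CD137 Tex overlaps with Tpex. The control Tpex and Tex counts, here and in the next paragraph, are not of separate sets. Of the 102 control Tex TRAV14 clonotypes 41 were also found in control Tpex, and the overlap within the combination was not counted. In control Tex 16 of the 18 clonotypes, and in control Tpex 27 of the 32, used a copy numbered 2. Among all TRAV14 clonotypes these copies made up 55.9% in control Tex and 40.4% in control Tpex. In control Teff 12 of the 24 clonotypes of the combination, and in anti-CD137 Teff 9 of the 22, used a copy numbered 2. TRAV14N-2 had 13 of its 31 control Tex clonotypes in this combination (41.9%, 24.5 to 60.9%). Without the combination, the copies numbered 2 took 3.72% of control Tex and 3.29% of control Teff clonotypes, and the difference was 0.433 points (-0.642 to 1.75). A smaller difference was bound to follow, since the combination was chosen where it was high and lay mostly in these copies there.

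**Figure D4:**
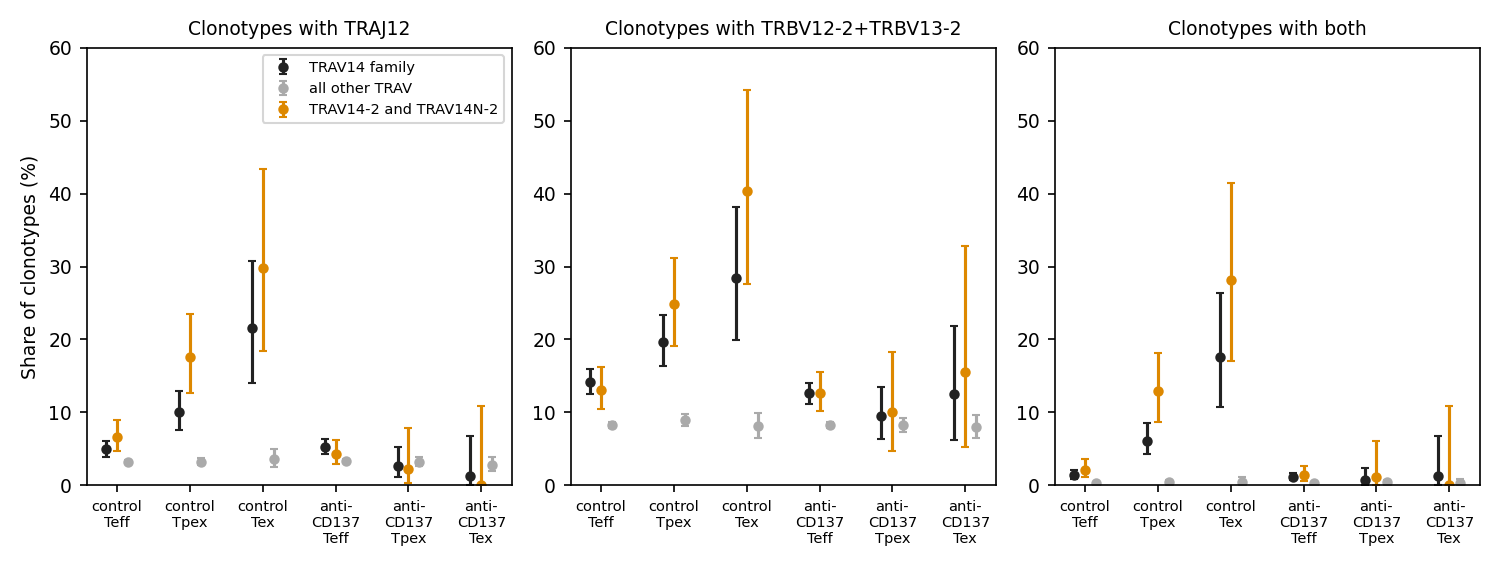
Share of clonotypes, in percent, with TRAJ12, with the combined name TRBV12-2+TRBV13-2 and with both, by library, for the TRAV14 family (black), its copies numbered 2 (orange) and all other TRAV (grey); bars are exact 95% intervals. Both segments together reached 17.6% of TRAV14 clonotypes in control Tex, against 0.489% for other TRAV.

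The receptors of this combination were different clonotypes with parts of their sequence in common. The 18 control Tex clonotypes, 71 cells, had 10 different TRA and 18 different TRB CDR3s at the amino acid level. Of their beta chains 15 of 18 began with CASGDA, and in control Tpex 23 of 32 did (71.9%, 53.3 to 86.3%). Among TRAV14 clonotypes that joined this TRBV name to another TRAJ the count was 14 of 70 in control Tpex and 4 of 11 in control Tex. In control Teff the order was the other way, with 6 of 24 for TRAJ12 and 71 of 212 for another TRAJ. In anti-CD137 Teff the counts were 7 of 22 and 62 of 217, and in anti-CD137 Tpex and Tex TRAJ12 had 0 of 2 and 0 of 1. Among other TRAV with this TRBV name the share was 17.8% in control Tpex and 22.9% in control Tex. The CASGDA start was chosen after these values were seen, and how much of it the V segment encodes was not determined. The 3 largest in control Tex are shown because they share these parts while both joints differ. Capitals mark, in the TRA, bases that match neither germline end and, in the TRB, the codons of CASGDA.
TRAV14N-2 TRA, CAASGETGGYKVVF: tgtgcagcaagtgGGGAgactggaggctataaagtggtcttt
its TRB: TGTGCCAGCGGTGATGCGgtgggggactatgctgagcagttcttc
TRAV14-1 TRA, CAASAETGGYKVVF: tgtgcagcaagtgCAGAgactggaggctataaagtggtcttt
its TRB: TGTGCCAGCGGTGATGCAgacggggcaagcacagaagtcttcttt
TRAV14N-2 TRA, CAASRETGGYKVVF: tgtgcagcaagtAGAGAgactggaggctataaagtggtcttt
its TRB: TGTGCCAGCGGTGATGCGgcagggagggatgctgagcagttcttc
The first was found in 28 Tex cells, of which 27 had the combined TRBV name, and in no other control subset. The next was found in 2 Teff, 8 Tpex and 20 Tex cells, and the last in 1 Tpex and 6 Tex cells. Of the 18 control Tex clonotypes 8 had an alpha CDR3 ending in ETGGYKVVF. In control Tpex 4 of 32 had it, in control Teff 4 of 24 and in anti-CD137 Teff 1 of 22. In the 3 sequences shown, the bases of this ending after the E matched the germline.

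In the control PD1+ subsets a smaller share of TRAV14 cells than of other TRAV cells belonged to expanded clonotypes. In control Tex 79.0% of the paired TRAV14 cells (74.2 to 83.3%) belonged to clonotypes of at least 2 cells, against 92.4% for other TRAV, a difference of -13.4 points (-18.3 to -9.07). In control Tpex the values were 49.7% and 57%, a difference of -7.25 points (-10.8 to -3.65). With anti-CD137 they were 77.4% and 82.5% in Tex (difference -11.3 to 0.434 points) and 29.8% and 32.6% in Tpex (-7.76 to 2.41). In Teff the direction differed between treatments, with 5.20% against 3.55% in the control and 3.20% against 4.66% with anti-CD137. The control value reversed when at least 5 cells were asked for, where TRAV14 had 0 clonotypes and other TRAV 8. Cells per clonotype were 3.18 for TRAV14 and 7.29 for other TRAV in control Tex, and 2.71 and 3.64 in anti-CD137 Tex. The largest TRAV14 clonotype held 37 cells in control Tpex and 28 in control Tex, where the largest of other TRAV held 869 and 762, or 9.44% and 10.2% of the other cells. Counted by clonotype, those of at least 5 cells made up 4.04% of TRAV14 and 3.72% of other TRAV in control Tpex, and 15.7% and 18.4% in control Tex. The intervals of each pair overlapped.

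**Figure D5:**
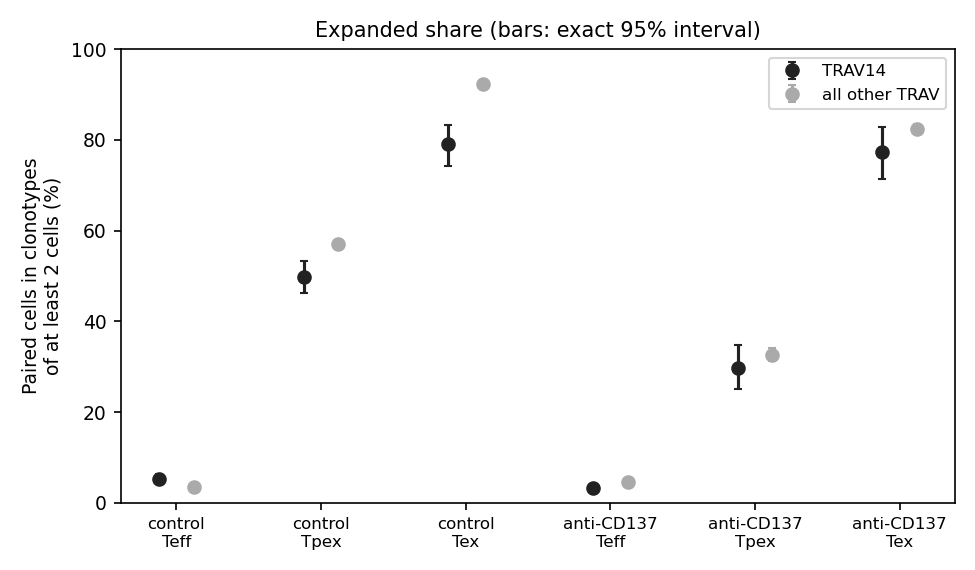
Share of paired cells, in percent, that belonged to clonotypes of at least 2 cells of their library, for TRAV14 cells (black) and cells of all other TRAV (grey); bars are exact 95% intervals, which for most grey points are smaller than the symbol. TRAV14 lay below other TRAV by 13.4 points in control Tex and by 7.25 in control Tpex.

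Among copies with at least 40 paired cells, the expanded share in control Tex was 83.7% for TRAV14N-2 (76.0 to 89.8%), 81.7% for TRAV14N-1 and 62.0% for TRAV14-2 (47.2 to 75.3%). In anti-CD137 Tex it was 92.2% for TRAV14-2 (83.8 to 97.1%), 77.3% for TRAV14N-3, 70.0% for TRAV14N-2 and 69.8% for TRAV14N-1. TRAV14-2 thus had the lowest of these values in control Tex and the highest in anti-CD137 Tex. In control Tpex the copies ranged from 29.5% for TRAV14D-3-DV8 to 70.4% for TRAV14-1.

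The largest PD1+ clonotypes of the control were of TRAV14N-2, and those under anti-CD137 were of TRAV14-2, while TRAV14N-2, TRAV14N-1 and TRAV14-1 were among the large clonotypes of both. In control Tpex, TRAV14N-2 joined to TRAJ7 formed 2 large clonotypes. The first paired CAARPDYSNNRLTL with TRBV3 and held 37 Tpex and 8 Tex cells. The other paired CAAIDYSNNRLTL with TRBV29 and the beta CDR3 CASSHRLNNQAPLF, and held 35 Tpex and 6 Tex cells. The next, of TRAV14-1 with TRAJ22, held 14 Tpex cells and had the amino acid CDR3 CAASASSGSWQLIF, with 2 bases that matched neither germline end. In control Tex, TRAV14N-2 with TRAJ23 (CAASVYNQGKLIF, TRBV26) held 26 cells and 1 Tpex cell, and TRAV14N-1 with TRAJ42 (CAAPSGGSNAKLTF, TRBV29) held 23 and 3. TRAV14N-1 with TRAJ34 (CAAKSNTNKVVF, TRBV20) held 21 Tex and 10 Tpex cells.

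With anti-CD137 the 2 largest were of TRAV14-2. The first joined TRAJ52 to TRBV12-2+TRBV13-2 with the beta CDR3 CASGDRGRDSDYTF and held 27 Tex, 6 Tpex and 1 Teff cell. The other had the short alpha CDR3 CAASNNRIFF of TRAJ31 with TRBV19 (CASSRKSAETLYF), and held 15 Tex, 3 Tpex and 7 Teff cells. TRAV14N-2 with TRAJ34 (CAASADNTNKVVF, TRBV3) held 13 Tex cells. TRAV14N-1 with TRAJ26 (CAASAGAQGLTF, TRBV10) and TRAV14N-3 with TRAJ32 (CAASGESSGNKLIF, TRBV17) held 8 Tex cells each, with 4 and 3 Tpex cells. TRAV14-1 with TRAJ48 (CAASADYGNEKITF, TRBV16) held 5 Teff, 1 Tpex and 3 Tex cells. TRAV14D-3-DV8 with TRAJ21 (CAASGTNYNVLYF) held 4 Tpex cells, and TRAV14-2 with TRAJ31 and TRBV13-1 (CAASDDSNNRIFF) 5 Teff cells. In control Teff the 3 largest held 4, 3 and 3 cells, the first of TRAV14N-3 with TRAJ32 and TRBV19, the next of TRAV14N-3 with TRAJ26 (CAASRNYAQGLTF, TRBV16), and the last of TRAV14-1 with TRAJ50 and TRBV12-2.

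In the control, a smaller share of TRAV14 cells than of other cells had a clonotype found in both PD1+ subsets. Of control Tex TRAV14 cells 62.3% had a clonotype also found in Tpex, against 79.5% of other TRAV cells (difference -17.2 points, -22.8 to -11.8). From the side of Tpex, 22.3% of TRAV14 cells and 39.4% of others were shared with Tex. With anti-CD137 the Tex value was 36.4% against 44.7% (difference -14.9 to -1.34 points). Of anti-CD137 Tex TRAV14 cells 24.4% had a clonotype found in Teff, against 10.5% of others. This value rested on 4 clonotypes, and without the largest of them it was 13.7% (9.14 to 19.4%). The part of clonotype size in these differences was not tested.

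Within a library, TRAV14 cells lay in the deposited clusters in about the same shares as other cells. In control Tex 91.4% of TRAV14 cells were in cluster 3 and 5.86% in cluster 4, against 89.7% and 8.11% of others. In anti-CD137 Tex 20.5% were in cluster 3 and 79.1% in cluster 4, against 22.6% and 76.6%. Cluster 1 held 87.9% and 84.3% of TRAV14 Tpex cells, the control first, and clusters 0 and 2 held 42.2% and 46.9% of control and 41.0% and 48.7% of anti-CD137 Teff cells. The interval of the difference from other TRAV excluded 0 for cluster 0 of control Teff (-5.09 to -0.163 points) among the clusters 0 to 5 of the 6 libraries. Across libraries the family took 9.5%, 8.35% and 9.97% of the cells of clusters 0, 1 and 2, 4.38% and 4.51% of clusters 3 and 4, and 7.94% of cluster 5. In anti-CD137 Tex, cluster 4 held 88.3% of 77 TRAV14-2 cells (79.0 to 94.5%) and 82.5% of 40 TRAV14N-2 cells. It held 75.6% of 45 TRAV14N-3 and 65.9% of 44 TRAV14N-1 cells, and the intervals of all these copies overlapped. The TRAV14-2 clonotype of 27 Tex cells had 24 of its cells in cluster 4, counted over the anti-CD137 libraries.

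Of 11 other TRAV families large enough to compare, TRAV5, TRAV12 and TRAV13 had the most similar pattern of clonotype shares over the 6 libraries. Their mean absolute difference from TRAV14, in log2 units after each library was divided by the mean over libraries, was 0.12, 0.14 and 0.19. TRAV5 took 3.47% of control and 2.20% of anti-CD137 Tex clonotypes, and TRAV12 14.2% and 12.2%. In both, as in TRAV14, anti-CD137 Tex was the lowest of the 6 libraries. In TRAV13 the lowest was control Tpex, at 9.45%, beside 9.57% in anti-CD137 Tex.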

How the data were processed

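Splenic CD8+ T cells of 6 sorted populations were described by 12 samples, a 5′ gene expression and a TCR library each. Cell Ranger 3.0.2, Seurat 4.0.0 and the build mm10 are named, per the submitters' processing notes. The V(D)J reference and the treatment of doublets are not given in the sources used here, and no doublet caller was run. The deposited TCR table gives, per contig, names, sequences and the counts of UMIs and reads, per the file headers. The deposited cell table gives, per cell, UMI and gene counts, the percent of mitochondrial and ribosomal UMIs and a cluster number. The percent columns were not used. Expression per gene was not analysed here.

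Barcodes were matched within each library, and for each chain the contig of highest UMI count was kept, ties going to more reads. Shares are of cells with a TRA, or of clonotypes from cells with both chains. Of 275 TRAV14 clonotypes of at least 2 cells, 0 carried more than 1 TRAV name. Copies were compared at a fold of 1.5 where a share reached 0.5% in at least 1 of both libraries. A share of 0 is limited by 3 counts. TRAV14 had 1663, 520 and 102 clonotypes in control Teff, Tpex and Tex, and 1902, 294 and 80 with anti-CD137, which sets the precision. Germline sequences came from GENCODE M21 on GRCm38.

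Named were all copies, the 3 most used TRAJ and TRBV in Teff and those past the fold in both Teff libraries, the 3 largest clonotypes of each library, the 5 largest shared ones per treatment, and the 3 families most alike. The members and lists were chosen with earlier results of these data known. Alternatives varied chains, cells, clonotype definition, fold and floor. The calls and intervals were tested on data simulated from the pooled Teff shares, with cells drawn independently. This does not cover libraries with large clonotypes. Scripts used Python 3.11.15, numpy 2.4.6, pandas 2.3.3, scipy 1.17.1 and matplotlib 3.10.9.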

Additional observations from a re-analysis of the deposited data

Results flagged for a closer look

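In the following the difference between Tpex or Tex and Teff, in percentage points of clonotypes, had opposite signs in the treatments, and at least 1 of the intervals excluded 0. Each treatment is 1 library per subset, so these differences between treatments were not tested. TRAV14N-2 differed from Teff by 0.964 in control and -0.268 in anti-CD137 Tex, and by 0.108 and -0.594 in Tpex. The copies numbered 2 together differed by 1.72 and -0.860 in Tex, and by 0.568 and -0.786 in Tpex. TRAV14-2 differed by 0.460 and -0.192 in Tpex, TRAV14-3 by 0.0489 and -0.558, and the copies numbered 1 by -0.579 and 0.292.

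TRAV14 was also found in chains that the shares above do not use. Among the TRA contigs with fewer UMIs, in cells with 2 of them, it took 8.42% (749 of 8892), from 6.28% in anti-CD137 Tex to 8.90% in anti-CD137 Tpex. In control Tex it took 8.59% of these chains and 4.10% of the main ones. At barcodes outside the cell table it took 11.6%, 8.71% and 4.15% of those with a TRA in control Teff, Tpex and Tex, and 11.3%, 8.94% and 4.80% with anti-CD137.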

How the results depend on the processing

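Of 210 values under other settings, over 49 results, 187 stayed within the interval of the value reported or, for counts of copies, within 1.5 times of it. Without the 10 largest clonotypes of each library, the family's share of cells differed between treatments by -1.27 points in Tpex and, with the sign turned, by -1.14 in Tex. Tex then differed from Teff by -2.84 in the control and -3.82 with anti-CD137, and for the copies numbered 3 in the control by -2.47. For the copies numbered 2 in the control the difference by cells reversed to 0.393. With exactly 1 TRA per cell the control difference of the family was -6.37. At a fold of 2, 1 copy passed between treatments in Tpex by cells and 1 by clonotypes. With copies of a number pooled these counts were 0 and 1, and in Tex 1 and 1. Without a floor 6 copies passed in Tex by cells. With at least 5 cells as expanded, TRAV14 differed from other TRAV by -0.363 points in control Teff, a reversal, by -12.8 in control Tpex and by -12.6 in anti-CD137 Tex. Counting each clonotype once per cluster, cluster 3 of control Tex held 4.85 points more of TRAV14. The comparisons of Tex with Teff, and the values without the TRAJ12 combination or without the largest shared clonotype, were added after seeing the data. These settings remove or merge cells by construction; beyond that the cause was not tested. No paired analysis was possible because each group is 1 library and replicate numbers pair nothing, and no library could be left out of its group. The Tex values rest on 102 and 80 TRAV14 clonotypes, and 22.3% of the TRAV14 chains of anti-CD137 Tpex rest on 1 UMI.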
